A study of Rattus norvegicus with 8 samples.

Results

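Ttr, Kl, Enpp2 and Aqp1 are genes for which the epithelium of the choroid plexus, the tissue in the brain ventricles that secretes cerebrospinal fluid, is a main site of expression in the brain. Their levels were examined in RNA sequencing libraries of the hippocampus, as a reading of ventricular tissue carried over in the dissection. The 4 genes were taken by Ensembl gene ID: ENSRNOG00000016275 (Ttr), ENSRNOG00000001092 (Kl), ENSRNOG00000004089 (Enpp2) and ENSRNOG00000011648 (Aqp1). The symbols came with this choice of IDs, since the deposited tables do not pair IDs with names. The count table holds 26405 IDs, of which 14522 were abundant enough to be tested, all 4 of these genes among them.

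The animals were 8 female Sprague-Dawley rats aged 28 months, all injected intracerebroventricularly with an adenoviral vector. In the 4 rats of the IGF1 group it expressed rat IGF-I (insulin-like growth factor I). In the 4 rats of the DsRed group it was the placebo vector, named for the red fluorescent protein DsRed. Each library came from the right hippocampus of 1 rat. The sources used here do not give the promoter of the vectors, the dose or the time between injection and dissection. No untreated rats were analysed here, so both groups share the injection and the adenoviral type of vector, and differ in what the vector carried.

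The choroid plexus of the lateral ventricle lies along the margin of the hippocampus, and its epithelium differs sharply from neural tissue in what it expresses. Transthyretin, the product of Ttr, is among its most abundant proteins and carries thyroxine and, through retinol-binding protein, retinol. Klotho, the product of Kl, is a membrane protein that serves as a co-receptor for fibroblast growth factor 23, and its outer part is shed into the cerebrospinal fluid. Enpp2 encodes autotaxin, a secreted enzyme that makes lysophosphatidic acid, and Aqp1 encodes aquaporin-1, a water channel of the apical epithelial membrane. Enpp2 is also expressed by oligodendrocytes, Aqp1 by red blood cells, and Kl at lower levels by some neurons, so Ttr is the most restricted of the 4.

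Promoter windows are shown for Ttr, Kl and Aqp1, the members for which a sequence was available. RefSeq sequences of the GRCr8 assembly were matched by symbol for 3 of the 4 genes, without an entry for Enpp2. Each window runs 5′ to 3′ on the plus strand from 250 bases before to 50 bases after the start of the gene model. Capitals mark matches of the motif TAATC, the core of sites read by OTX-type homeobox factors, on either strand, and of the motif TATAAA, which is bound by the general transcription machinery. OTX2 is a homeobox factor needed for the development of the choroid plexus. The windows lie at chr18:12218508-12218807 (Ttr), chr12:5325753-5326052 (Kl) and chr4:85812534-85812833 (Aqp1).
Ttr: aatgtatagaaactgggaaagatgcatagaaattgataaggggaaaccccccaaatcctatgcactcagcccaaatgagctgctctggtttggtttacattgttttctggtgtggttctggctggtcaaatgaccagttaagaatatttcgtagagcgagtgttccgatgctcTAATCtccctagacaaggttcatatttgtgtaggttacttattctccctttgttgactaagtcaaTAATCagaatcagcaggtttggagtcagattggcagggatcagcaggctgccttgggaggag
Kl: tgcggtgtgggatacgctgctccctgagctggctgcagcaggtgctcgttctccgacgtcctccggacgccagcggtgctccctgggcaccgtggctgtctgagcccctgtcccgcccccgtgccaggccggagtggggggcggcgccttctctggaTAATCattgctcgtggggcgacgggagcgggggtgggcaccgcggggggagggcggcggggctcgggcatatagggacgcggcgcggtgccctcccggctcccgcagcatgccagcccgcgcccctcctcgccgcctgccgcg
Aqp1: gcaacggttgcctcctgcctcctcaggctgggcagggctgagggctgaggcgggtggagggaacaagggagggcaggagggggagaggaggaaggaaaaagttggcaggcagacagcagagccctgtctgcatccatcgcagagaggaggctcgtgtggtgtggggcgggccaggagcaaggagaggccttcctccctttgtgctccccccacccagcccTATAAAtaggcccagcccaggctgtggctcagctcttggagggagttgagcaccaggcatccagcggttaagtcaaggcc

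The 3 windows differed in their number of TAATC matches and in their share of G and C, and were not aligned. The Ttr window held TAATC at 2 places, starting -77 and -12 bases from the start of the gene model. The Kl window held it once, at -93. The Aqp1 window held no TAATC, and it alone of the 3 held TATAAA, at -30. The gene model starts were not checked against measured start sites, and motifs outside the windows were not counted. The longer form TAATCC, which contains TAATC, was in none of the 3. Over all 33469 promoter windows of this length, TAATC was found in 22.95%, TAATCC in 7.17% and TATAAA in 14.2%, both strands counted. The Kl window was 75.0% G and C, against 64.0% for Aqp1 and 43.7% for Ttr. These matches are a description of the letters and were not tied to any measurement.

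Library depth was between 16347636 and 27377086 reads assigned to genes. A single rat, DsRed replicate 4, stood apart in the choroid plexus genes, as given next. Its library had 18005777 reads assigned to genes. Its share of reads outside genes, taken over these and the assigned reads together, was 30.7%. That was the lowest of the 8, where the highest was 32.9%. Over all tested IDs, its Spearman correlation with the rest averaged 0.993, inside the range of 0.986 to 0.994 over the 8 libraries. The library farthest from the others by that measure was IGF1 replicate 1. Levels are read counts per unit of library size (CPM) after scaling of the libraries by the trimmed mean of M values (TMM). Transcript lengths were not used, so each gene is compared only with itself across rats. In bulk tissue, fewer cells of a type and less RNA per cell cannot be told apart.

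Ttr, the thyroxine carrier, varied more between rats than nearly any other transcript of similar abundance. In DsRed replicates 1 to 4 its level was 29.8, 12.2, 21.9 and 243.4 CPM. In IGF1 replicates 1 to 4 it was 7.08, 4.14, 25.6 and 5.64 CPM. DsRed replicate 4 was far above all other rats, and among the rest IGF1 replicate 3 lay with the DsRed rats while the other 3 IGF1 rats lay below every DsRed rat. The groups overlapped through IGF1 replicate 3 alone. Between 76 and 4510 reads stood behind each value, and the span from the lowest to the highest rat was 58.8-fold.

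Kl, the Klotho gene, followed much the same order at a level near the limit of this depth. Its level was 1.24, 0.693, 0.690 and 7.93 CPM in DsRed replicates 1 to 4. In IGF1 replicates 1 to 4 it was 0.693, 0.218, 1.10 and 0.174 CPM. DsRed replicate 4 was again the highest by a wide margin, and IGF1 replicates 2 and 4 were again the lowest, with 4 and 3 reads. The exact 95% Poisson interval, which covers counting error only, was 0.0594 to 0.558 CPM for IGF1 replicate 2 and 0.0360 to 0.509 CPM for IGF1 replicate 4. At this depth these libraries could not be ordered against each other. In DsRed replicate 4, 147 reads gave an interval of 6.70 to 9.33 CPM, clear of the intervals of all other rats.

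Aqp1, the water channel gene, had the same rats at its extremes with a smaller span. Its level was 1.12, 1.12, 1.21 and 2.64 CPM in DsRed replicates 1 to 4, and 0.876, 0.545, 1.28 and 0.465 CPM in IGF1 replicates 1 to 4. The first 3 DsRed rats were nearly equal, the last was higher than these on 49 reads, and IGF1 replicates 2 and 4 were lowest on 10 and 8 reads. The groups overlapped only through IGF1 replicate 3, as for Ttr.

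Enpp2, the autotaxin gene, put the rats in another order. Its level was 58.4, 95.8, 126.8 and 192.4 CPM in DsRed replicates 1 to 4, and 82.9, 103.9, 124.7 and 110.2 CPM in IGF1 replicates 1 to 4. DsRed replicate 4 was highest here too, but DsRed replicate 1, second for Ttr and Kl, was the lowest of all rats. All IGF1 rats lay inside the DsRed range. With 941 to 3564 reads per library, counting error was small beside the spread between rats.

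**Figure D1:**
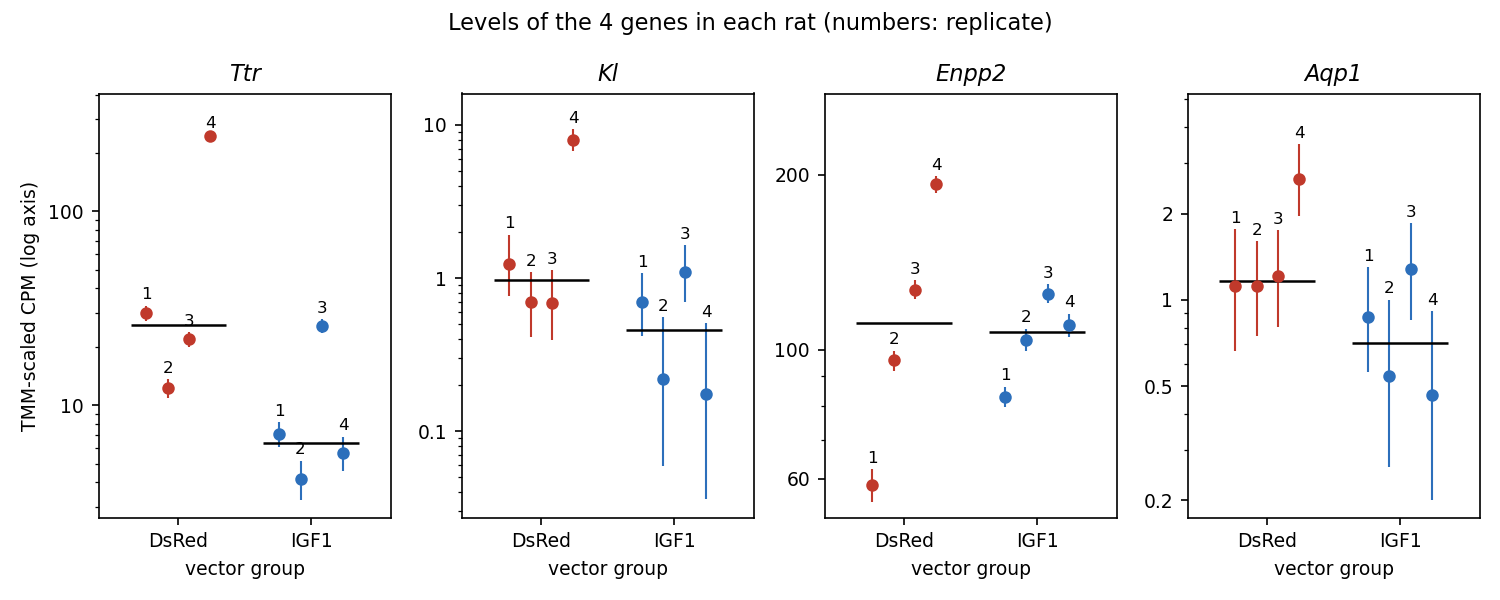
Levels of Ttr, Kl, Enpp2 and Aqp1 in TMM-scaled CPM on log axes, 1 point per rat, labelled with its replicate number, in the DsRed (red) and IGF1 (blue) groups; whiskers are exact 95% Poisson intervals for counting error and horizontal lines are group medians. DsRed replicate 4 is the highest rat in every panel, at 243.4 CPM for Ttr, and IGF1 replicates 2 and 4 are the 2 lowest for Ttr, Kl and Aqp1.

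The spread of Ttr and Kl was large against that of all transcripts. The standard deviation of log2 CPM over the 8 rats was 1.86 for Ttr, 1.51 for Kl, 0.71 for Aqp1 and 0.50 for Enpp2, where the median over all tested IDs was 0.14. In that order Ttr ranked 19th and Kl 30th of 14522 IDs, Aqp1 294th and Enpp2 759th. Low counts widen this measure, so the spread was also taken within groups as the biological coefficient of variation, edgeR's estimate of the spread beyond counting error. It was 84.3% for Ttr, 79.2% for Kl, 34.2% for Aqp1 and 29.01% for Enpp2, against a median of 9.69% over all tested IDs. Relative to the dispersion trend for their abundance, Ttr ranked 5th, Kl 86th, Enpp2 92nd and Aqp1 1330th.

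DsRed replicate 4 held 19.95 times the median Ttr level of the other 7 rats. The ratio was 11.4 for Kl, 2.37 for Aqp1 and 1.85 for Enpp2. Of the 14522 IDs tested, 1 had a higher ratio than Ttr, 4 a higher ratio than Kl, 101 a higher ratio than Aqp1 and 215 a higher ratio than Enpp2. Ratios over 2 were found for 3 of the 4 genes and for 162 IDs in all, which is 1.12%. By the same measure the other libraries had between 20 and 283 such IDs, the most in IGF1 replicate 1. Ttr and Kl were thus near the top of a small set of transcripts that were high in DsRed replicate 4. That rat was singled out by its levels of these same genes, so their ranks are a description.

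**Figure D2:**
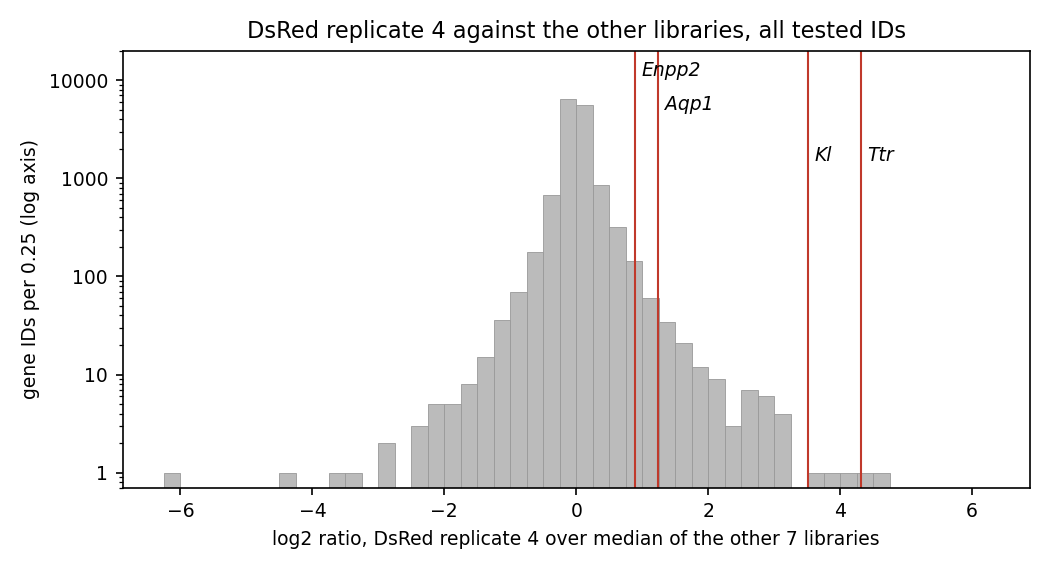
Number of tested gene IDs (log axis) by the log2 ratio of their CPM in DsRed replicate 4 to the median of the other 7 libraries, in bins of 0.25, with the 4 genes marked by red lines. Most IDs lie near 0, Enpp2 and Aqp1 lie on the right slope at ratios of 1.85 and 2.37, and Kl and Ttr lie in the far tail at 11.4 and 19.95.

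The proportion of Kl to Ttr in DsRed replicate 4 was inside the range of the other rats, while that of Aqp1 to Ttr was below it. Kl reads made up 4%, 5.37%, 3.05% and 3.16% of the reads of Kl and Ttr together in DsRed replicates 1 to 4, and 8.92%, 5%, 4.10% and 3% in IGF1 replicates 1 to 4. The exact 95% binomial (Clopper-Pearson) interval of DsRed replicate 4, 2.67% to 3.70%, overlapped that of every other rat except IGF1 replicate 1, whose interval was 5.46% to 13.6%. The intervals of IGF1 replicates 2 and 4, on 4 and 3 Kl reads, were 1.38% to 12.3% and 0.623% to 8.52%, too wide to show a difference.

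Aqp1 reads made up 1.08% of the reads of Aqp1 and Ttr in DsRed replicate 4, with an interval of 0.796% to 1.42%. In the other 7 rats the share was 3.61% to 11.6%, and the lowest bound of any of their intervals was 2.16%, in DsRed replicate 1. The excess of Aqp1 in that rat was thus smaller than that of Ttr by more than counting error. Enpp2 reads made up 44.1% of the reads of Enpp2 and Ttr there, against 66.2% to 96.2% in the other rats. These intervals cover counting error only.

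**Figure D3:**
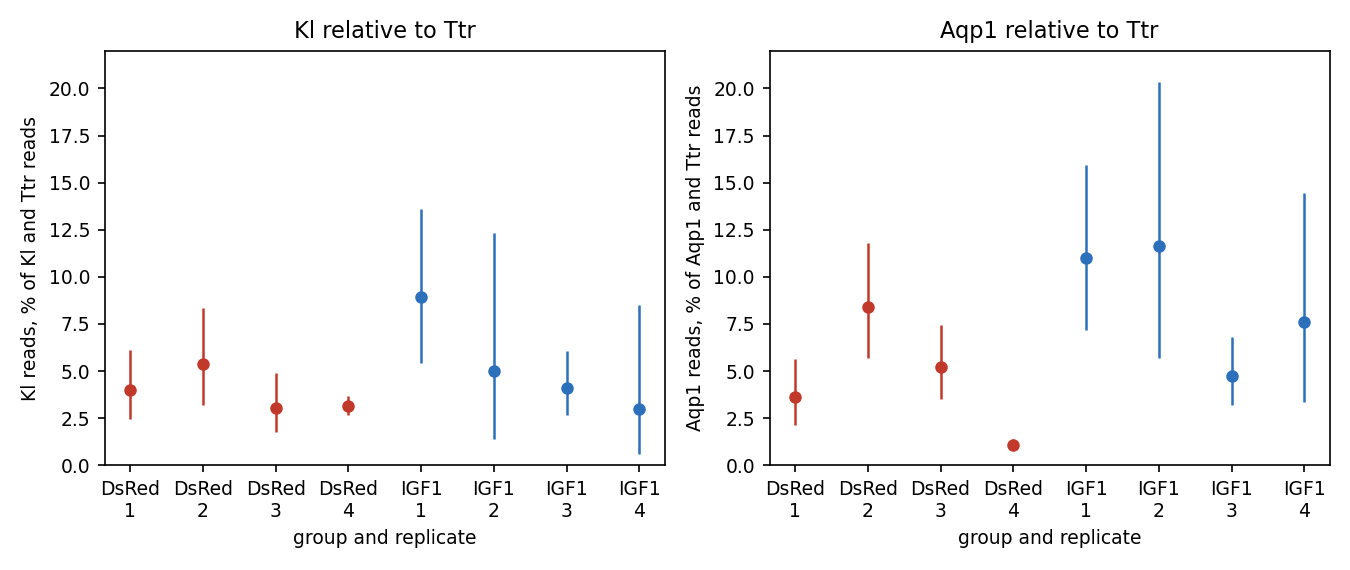
Kl reads as a percentage of Kl and Ttr reads (left) and Aqp1 reads as a percentage of Aqp1 and Ttr reads (right) in each library, with exact 95% binomial intervals for counting error. The Kl share of DsRed replicate 4, 3.16%, lies among those of the other rats, and its Aqp1 share, 1.08%, lies below all of theirs.

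Ttr, Kl and Aqp1 varied together over the 8 rats, and Enpp2 was not shown to vary with them. Over log2 CPM, Pearson's r was 0.96 for Ttr and Kl, 0.94 for Ttr and Aqp1, and 0.96 for Kl and Aqp1, with exact two-sided permutation p of 0.000446, 0.00057 and 0.00109 (n = 8). After Benjamini-Hochberg adjustment over the 6 pairs these exact permutation p were 0.00171, 0.00171 and 0.00218. Spearman's rho was 0.88, 0.90 and 0.79, with exact permutation p of 0.00724, 0.00456 and 0.0279, or 0.0217, 0.0217 and 0.0559 after the same adjustment. By rank, Kl and Aqp1 therefore missed the threshold after adjustment. Enpp2 had r of 0.51 with Ttr, 0.44 with Kl and 0.47 with Aqp1, with adjusted exact permutation p of 0.270 each, and rho of 0.29, 0.024 and 0.52 (adjusted exact permutation p of 0.601, 0.977 and 0.295).

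By Pearson's r the relation among Ttr, Kl and Aqp1 remained without DsRed replicate 4, and by rank it did so for 2 of the 3 pairs. Without that rat, r was 0.88 for Ttr and Kl, 0.88 for Ttr and Aqp1, and 0.94 for Kl and Aqp1, with unadjusted exact permutation p of 0.00357, 0.00536 and 0.00873 (n = 7). Spearman's rho was then 0.82, 0.86 and 0.68, with unadjusted exact permutation p of 0.0341, 0.0238 and 0.110, so Kl and Aqp1 no longer passed by rank. Without the 2 rats farthest from the median of the first gene of each pair, r was 0.82, 0.83 and 0.89, with unadjusted exact permutation p of 0.00833, 0.0125 and 0.0444 (n = 6). After adjustment over the 6 pairs the last became 0.0889. With each rat taken as its deviation from its group's mean, r was 0.95, 0.90 and 0.95, with unadjusted exact permutation p within groups of 0.00694, 0.0122 and 0.0104. For Enpp2 the positive values rested on DsRed replicate 4, without which r was -0.15 with Ttr, -0.36 with Kl and -0.084 with Aqp1. Without DsRed replicate 1, the lowest rat for Enpp2, r of Ttr and Enpp2 was instead 0.89, with an exact permutation p of 0.0229 after adjustment over the 6 pairs.

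**Figure D4:**
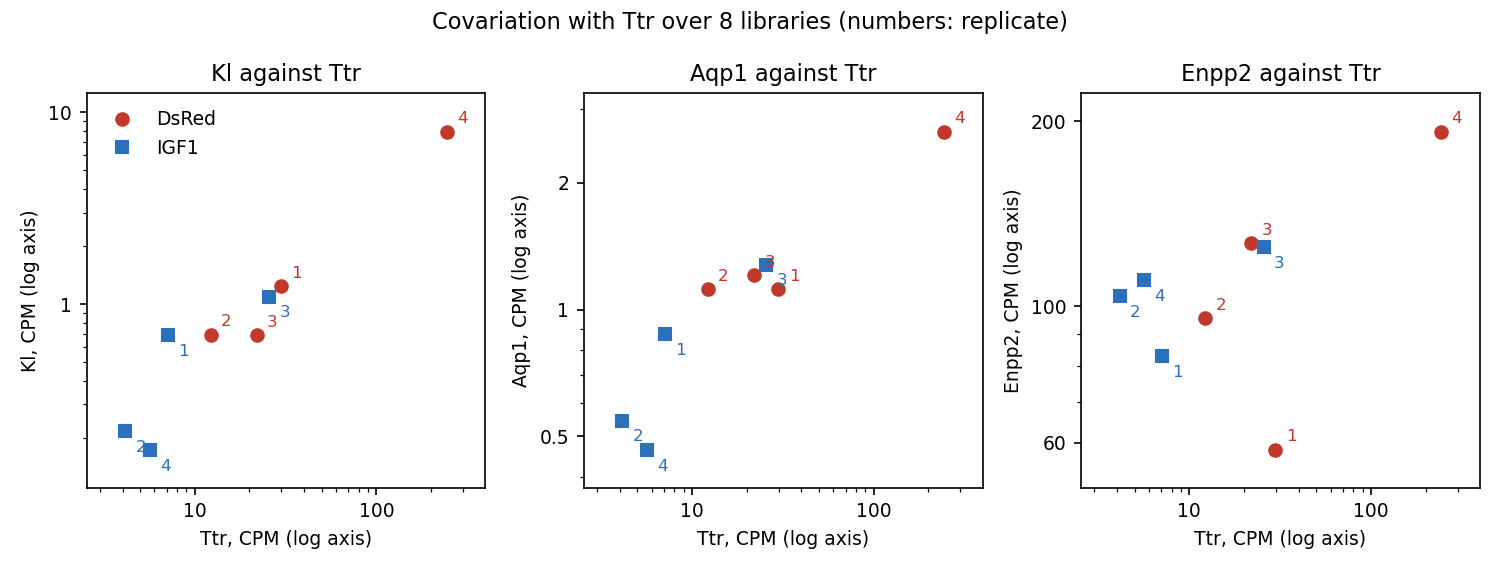
CPM of Kl, Aqp1 and Enpp2 against CPM of Ttr on log axes, 1 point per rat with its replicate number, DsRed in red circles and IGF1 in blue squares. Kl and Aqp1 tend to be higher where Ttr is higher (r of 0.96 and 0.94 on log2 CPM), but with flat stretches. Kl is 0.69 CPM in IGF1 replicate 1 and DsRed replicates 2 and 3, where Ttr is 7.08, 12.2 and 21.9 CPM. Aqp1 is 1.12 to 1.28 CPM in DsRed replicates 1 to 3 and IGF1 replicate 3. Enpp2 shows no steady relation with Ttr below DsRed replicate 4.

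Fitted across all genes with group in the model, the slope on Ttr was largest for Kl among the other 3 genes. The differences between these slopes were not tested. The slope, in log2 units per log2 unit of Ttr, was 0.86 with a standard error of 0.099 for Kl, 0.35 with 0.077 for Aqp1 and 0.21 with 0.082 for Enpp2. In edgeR's quasi-likelihood test the unadjusted p was 1.32e-05, 0.00162 and 0.0333, so all 3 were positive at an unadjusted p under 0.05, where 1.38% of the 14521 IDs tested were. The adjusted p of the same test was 0.0639 for Kl and 0.9999 for Aqp1 and Enpp2, so 0 of the 3 passed 0.05. Of all IDs, 2 passed (0.0138%), both positive. Leaving out any single library other than IGF1 replicate 1 left no ID past the threshold, and without IGF1 replicate 1 there were 4. Without DsRed replicate 4 no ID passed, and 180 had an unadjusted p under 0.05. The slopes of Kl and Aqp1 were then 0.75 and 0.40 with unadjusted p of 0.0141 and 0.0421 in the same edgeR test, where 0.882% of the IDs had a positive slope at that level. That of Enpp2 was 0.044 with a standard error of 0.145.

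The IDs most like Ttr over the 8 rats were ENSRNOG00000026870 and ENSRNOG00000010378, with r of 0.98 and 0.97 on log2 CPM, and Kl ranked 3rd of the 13744 IDs compared. Aqp1 ranked 7th and Enpp2 1113th. Kl had 0.174 to 1.10 CPM in the IGF1 rats, 0.690 to 1.24 CPM in the other 3 DsRed rats and 7.93 CPM in DsRed replicate 4. Its mean reached the minimum level for this comparison only through DsRed replicate 4, so its rank is a description. Without DsRed replicate 4, ENSRNOG00000026870 and ENSRNOG00000010378 still had r of 0.93 and 0.90. They are the same 2 IDs that passed the fit on Ttr, and both were low outside DsRed replicate 4. ENSRNOG00000026870 had 0.756 to 2.60 CPM in the IGF1 rats, 1.55 to 2.30 CPM in the other 3 DsRed rats and 10.3 CPM in DsRed replicate 4. ENSRNOG00000010378 had 0.581 to 1.83, 0.732 to 2.05 and 7.50 CPM in the same order. At the other end, ENSRNOG00000002615 and ENSRNOG00000049824 had r of -0.97 and -0.96, but their levels moved little, between 34.8 and 42.0 CPM and between 32.2 and 39.0 CPM. These IDs were picked for their r, so their values are a description, and the files do not pair them with names.

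The comparison of the vectors found Ttr, Kl and Aqp1 lower on average in the rats given the IGF-I vector, and none of the 4 genes passed the test across all genes. The mean level of Ttr was 10.6 ± 10.1 CPM with the IGF-I vector and 76.8 ± 111.3 CPM with the placebo vector (SD, n = 4 each). Kl had 0.545 ± 0.436 and 2.64 ± 3.54 CPM, Aqp1 0.791 ± 0.371 and 1.52 ± 0.750 CPM, and Enpp2 105.4 ± 17.4 and 118.4 ± 56.7 CPM, in the same order. The standard deviations of Ttr and Kl in the DsRed group, which includes DsRed replicate 4, exceeded their means. The group medians of Ttr were 6.36 CPM (IGF1) and 25.9 CPM (DsRed).

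In edgeR's quasi-likelihood test the log2 fold change of the IGF1 over the DsRed group was -2.83 for Ttr with a standard error of 0.99, an unadjusted p of 0.0170 and an adjusted p of 0.743. It was -2.17 for Kl with a standard error of 0.90, and -0.90 for Aqp1 with a standard error of 0.39, with unadjusted p of 0.0376 and 0.0459 in edgeR and adjusted p of 0.743 each. For Enpp2 it was -0.17, with a 95% interval of -0.83 to 0.49, and edgeR's adjusted p was 0.912. At an adjusted p under 0.05, 0 of the 4 genes were called, and the share called over all 14522 IDs was 0%. At an unadjusted p under 0.05, 3 of the 4 were lower in the IGF1 group, where 3.05% of all IDs were. The 3 genes varied together, so they are not 3 separate observations.

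A fitted difference of more than 2-fold towards lower levels in the IGF1 group was found for Ttr and Kl, and for 29 IDs in all (0.2%). The groups overlapped for all 4 genes, where 4.71% of all IDs had groups that did not overlap. In an exact two-sided permutation test on log2 CPM, which weighs the single extreme rat less, p was 0.0857 for Ttr, 0.171 for Kl, 0.114 for Aqp1 and 0.914 for Enpp2 (n = 4 each). The smallest p that 4 rats against 4 allow is 0.0286. Other tools run on the same counts called 11 IDs (edgeR's likelihood ratio test), 13 (DESeq2) and 0 (limma voom). For Ttr, Enpp2 and Aqp1 none of them gave an adjusted p under 0.05. The same held for Kl in the likelihood ratio test and limma voom, while DESeq2 gave no adjusted p for Kl. The quasi-likelihood test listed 958 IDs (6.6%) at an unadjusted p under 0.05 in either direction.

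Without DsRed replicate 4 the fitted differences were much smaller. The log2 fold change of Ttr was then -0.98 with a 95% interval of -2.29 to 0.33, and that of Kl -0.58 with an interval of -1.84 to 0.68. That of Aqp1 was -0.51 with an interval of -1.28 to 0.27, and that of Enpp2 turned to 0.17 with an interval of -0.36 to 0.69. The unadjusted p in edgeR's quasi-likelihood test was 0.126, 0.325, 0.171 and 0.495. Leaving out any other single rat kept Ttr between -3.74 and -2.57. In the same edgeR test Kl and Aqp1 also had unadjusted p above 0.05 without IGF1 replicate 1 (0.0516 and 0.0602), IGF1 replicate 2 (0.0901 and 0.113) or IGF1 replicate 4 (0.0855 and 0.108). Without DsRed replicate 4 the same test listed 706 IDs at an unadjusted p under 0.05, 351 lower and 355 higher in the IGF1 group.

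**Figure D5:**
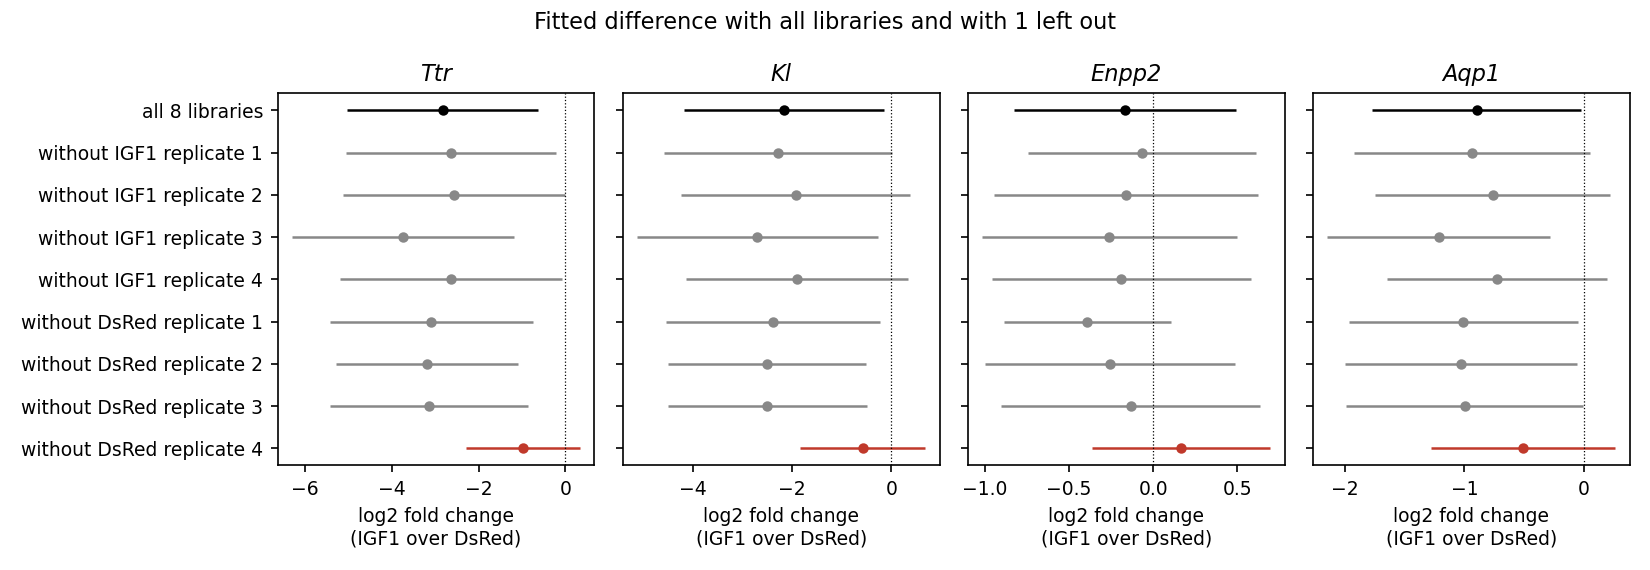
Log2 fold change of the IGF1 over the DsRed group for each gene from edgeR's quasi-likelihood fit, with 95% intervals, using all 8 libraries (black) or leaving out 1 at a time (grey, and red for DsRed replicate 4). Without DsRed replicate 4 the value for Ttr moves from -2.83 to -0.98 and all 4 intervals include 0, and the intervals of Kl and Aqp1 also include 0 without IGF1 replicate 1, 2 or 4.

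Whether the level of choroid plexus genes reflects how much ventricular tissue entered each sample, a change in that tissue or expression by hippocampal cells was not tested. Markers of the ependyma, meninges, blood and hippocampal neurons, and the other genes of the choroid plexus, of Klotho and FGF signalling, of lysophosphatidic acid signalling and of thyroid hormone carriage were not analysed here, because the files do not pair their IDs with names.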

How the data were processed

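RNA from the right hippocampus of 8 rats, 4 per group, was made into libraries using the TruSeq RNA kit of Illumina, according to the extract protocol. CASAVA 1.8.2, HTSeq, STAR and edgeR are listed by the submitters' processing notes, with no role for any. The build, the annotation and the strandedness of counting are not stated, so reads of overlapping or antisense genes may not be told apart. Raw read counts per Ensembl ID, with HTSeq summary rows, make up the first deposited table. The row of reads outside genes stayed out of library sizes and tests. It was 30.7% to 32.9% of these reads and the reads assigned to genes together. A further deposited table gives the more abundant IDs as a normalised signal, which is linear although the table is named log2. It served only for an alternative.

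Counts were analysed in R 4.3.3 with edgeR 4.0.16: low counts were filtered by filterByExpr (minimum count 10 and total 15), scaling was TMM, and groups were compared by glmQLFit and glmQLFTest without other covariates, two-sided, with Benjamini-Hochberg adjustment over all tested IDs, threshold 0.05. The fit on Ttr added its log2 CPM (prior count 2) to the group term and left Ttr out of the tested IDs. Standard errors are the coefficient over the square root of F. Likeness was Pearson's r over IDs with edgeR's average log2 CPM (aveLogCPM, the log of a fitted mean rather than the mean of the log values) at 0 or more, naming the 2 highest and 2 lowest outside the 4 genes, since 0 IDs matched the RefSeq gene table. DESeq2 1.42.0, limma 3.58.1, other scalings and filters, and leaving out each library were alternatives. The scripts were tested on simulated data. The genes, lists and tests were chosen with earlier results of these data known.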

Additional observations from a re-analysis of the deposited data

Results flagged for a closer look

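For each of the 4 genes the highest and lowest rat of each group were compared with the other 3, which makes 8 sets, and 4 values stood out. The measure was Dixon's gap, for which chance gives about 1 in 20 such sets when values are normally distributed. The gaps were taken on linear CPM, and not on the log2 CPM used for the correlations. A log scale makes the gap below a high value smaller, so that rate cannot be relied on here and the values are a description. Ttr, Kl and Aqp1 also varied together, so the values are not independent. DsRed replicate 4 accounts for 3 of them: 243.4 CPM of Ttr, 7.93 CPM of Kl and 2.64 CPM of Aqp1. The gap to the next DsRed rat took up 0.924 of the group's range for Ttr and for Kl and 0.940 for Aqp1. The fourth value was 25.6 CPM of Ttr in IGF1 replicate 3, with a gap of 0.863 of the group's range. For Enpp2 the gap of DsRed replicate 4 was 0.489 of the range and did not stand out.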

How the results depend on the processing

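Added after the counts had been seen were the library quality weights and the counts at an unadjusted p and more than 2-fold above the other rats. Ttr, Kl and Aqp1 kept a lower fitted level in the IGF1 group in all 23, 20 and 23 alternatives, never past an adjusted p of 0.05. Kl is absent from the alternatives on the deposited table and on IDs over 1 CPM in at least 4 libraries. DESeq2 gave it no adjusted p. Leaving out 1 library gave log2 fold changes of -3.74 to -0.98 for Ttr, -2.70 to -0.58 for Kl, -1.22 to -0.51 for Aqp1 and -0.39 to 0.17 for Enpp2, which reversed without DsRed replicate 4. IDs past the threshold numbered 11 with edgeR's likelihood ratio test, 13 with DESeq2 and 0 to 1 with 1 library left out. IDs at an unadjusted p under 0.05 numbered 626 to 1439 with 1 library left out. IDs varying with Ttr numbered 2, but 7 with the likelihood ratio test, 22 with Enpp2 in place of Ttr, 0 with Aqp1 in its place, 0 with the replicate block, and 0 to 4 with 1 library left out. Without the low count filter 1383 IDs lay more than 2-fold above the other rats in DsRed replicate 4. For these differences the cause was not tested.

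With 1 library left out, r was 0.88 to 0.99 for Ttr and Kl, 0.88 to 0.97 for Ttr and Aqp1, 0.94 to 0.98 for Kl and Aqp1, -0.15 to 0.89 for Ttr and Enpp2, -0.36 to 0.76 for Kl and Enpp2, and -0.084 to 0.71 for Enpp2 and Aqp1. Ttr and Enpp2 reached 0.89 without DsRed replicate 1, with an adjusted exact permutation p of 0.0229. Without the 2 libraries farthest from the median, r was -0.11 for Ttr and Enpp2, -0.31 for Kl and Enpp2, and 0.89 for Kl and Aqp1, whose adjusted exact permutation p rose to 0.0889. A fit with a replicate block by number gave log2 fold changes of -2.10 for Ttr, -1.63 for Kl, -0.055 for Enpp2 and -0.86 for Aqp1, with 0 IDs past the threshold, so it changed no call. Between libraries of the same number, deviations from the group means had r of 0.055, 0.126, 0.244 and 0.134. All 4 IGF1 libraries and 2 of the 4 DsRed libraries had their highest r with their own number. What lies behind these r was not tested. The labels name separate rats and no batch, so the numbers were not taken to pair the rats in the main fit. With 3 to 24 reads of Kl and 8 to 29 reads of Aqp1 per library outside DsRed replicate 4, their levels are limited by depth.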
